A study of Mus musculus with 3 samples.

Results

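Apolipoproteins are the protein components of the lipid particles that the liver releases into blood, and 7 of their genes are described here in normal mouse liver: Apoa1, Apoa2, Apob, Apoc1, Apoc3, Apoe and Apoh. They were taken by gene identifier from tables of transcript events (where transcripts begin and end, and which exons and introns they keep), in which 105 events across the libraries carried an identifier of one of the 7. The libraries numbered 3, replicates 1, 2 and 3 of a single group, made from healthy liver of WT males of the strain C57BL/6, and no age or treatment was given in the labels. All other genes of the same tables, 13078 with a value, serve as the background. No second group was analysed here, so no contrast between conditions was made, and levels, spread and transcript forms are descriptions. The labels do not say that the replicates came from separate animals, and the spread between them may be technical.

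Hepatocytes assemble triglyceride-rich particles around Apob, one molecule of which stays with each particle, and release Apoa1 and Apoa2, the main proteins of high-density lipoprotein (HDL). The small exchangeable proteins move between particles: Apoc1 and Apoc3 slow the clearance of remnants, and Apoe is the ligand by which receptors of the liver take remnants up. Apoh, also named beta-2-glycoprotein I, binds anionic phospholipid in plasma and belongs to another protein family than the rest. Apoa1 and Apoc3 are neighbours in a cluster on chromosome 9 that also holds Apoa4 and Apoa5, and Apoe and Apoc1 are neighbours in a cluster on chromosome 7 that also holds Apoc2 and Apoc4.

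Each event carries an FPKM computed by the authors, that is, the fragments of a transcript scaled to its length and to the size of the library. The replicates held 71716, 74243 and 74236 events. The tables give no read counts, so the depth behind each value is unknown and no counting interval can be stated. The level of a gene is a lower bound: the highest of its summed first exons, its summed last exons and its highest inner event. Albumin, the main hepatocyte product, was at 25366.6, 30592.2 and 27017.7 FPKM in replicates 1, 2 and 3, and 7 of 8 hepatocyte markers had a value. The eighth, Ttr, had no event on its strand wholly inside its annotated span, and its events gave 3512.54, 2807.53 and 3378.15 FPKM by identifier alone. Against the label male, Xist, the RNA of the silenced X chromosome in female cells, was listed at 65.7, 53.9 and 46.4 FPKM, and Eif2s3y, Kdm5d, Uty and Ddx3y of the Y chromosome were not listed. A gene absent from these tables is not shown to be silent, and since all 3 libraries had Xist, no value could be given without them.

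Of the 105 events, 70 lay on the strand and wholly inside the GENCODE M21 span of their gene. Another 25 lay on its strand but not wholly inside the span, some reaching into it, and 10 lay on the opposite strand. All 10 opposite-strand events carried the identifier of Apoe. The sense transcripts of Apoe stood under the identifier of its neighbour Tomm40, a mitochondrial import receptor gene whose span begins 2125 bases beyond that of Apoe. The 46 events inside the span of Apoe and on its strand were therefore used for Apoe, a choice made after the values had been seen. Tomm40 itself had a first exon at 13.2, 5.25 and 6.32 FPKM, which is 0.171, 0.114 and 0.206% of the Apoe level in replicates 1, 2 and 3.

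Sequences are shown for the places where the listed transcripts of these genes parted. The first is the exon of Apoc3 that a share of transcripts left out, with the start codon in capitals (chr9:46234659-46234726, minus strand, GRCm38). The second covers both main acceptors of Apoa2 exon 2, with the 3 bases that lie between them in capitals (chr1:171225272-171225301, plus strand, GRCm38, in the 5′ UTR). The third is exon 2 of Apob, which no listed transcript left out (chr12:7978213-7978251, plus strand, GRCm38).
Apoc3 skipped exon: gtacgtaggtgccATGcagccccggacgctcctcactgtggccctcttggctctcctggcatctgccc
Apoa2 exon 2 acceptors: ctttctcaccagCAGcactgttcctaggcc
Apob exon 2: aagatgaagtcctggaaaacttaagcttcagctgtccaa

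Windows around annotated starts came from RefSeq on GRCm38.p6, which matched 5 of the 7 genes with 8 windows; Apoc1 and Apoc3 had none in the table. Printed are the windows of Apoa1 and Apoe, whose annotated first exons held very different shares of the gene in the 3 libraries, and that of Apob, whose first exon did not. Capitals mark the first 30 bases of the listed first exon and, for Apob, the letters TATAAA ahead of it. The places are chr9:46228380-46228609 (plus strand), chr7:19699159-19699438 (minus strand) and chr12:7977427-7977677 (plus strand).
Apoa1 start: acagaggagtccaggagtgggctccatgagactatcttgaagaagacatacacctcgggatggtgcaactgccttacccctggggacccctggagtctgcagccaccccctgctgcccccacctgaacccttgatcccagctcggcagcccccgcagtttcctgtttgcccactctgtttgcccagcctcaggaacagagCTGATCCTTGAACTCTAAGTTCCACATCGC
Apoe start: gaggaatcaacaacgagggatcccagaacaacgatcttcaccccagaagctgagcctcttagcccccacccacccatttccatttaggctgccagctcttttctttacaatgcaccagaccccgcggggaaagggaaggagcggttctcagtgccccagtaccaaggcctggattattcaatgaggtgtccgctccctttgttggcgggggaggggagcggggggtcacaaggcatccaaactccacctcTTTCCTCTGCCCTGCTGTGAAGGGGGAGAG
Apob start: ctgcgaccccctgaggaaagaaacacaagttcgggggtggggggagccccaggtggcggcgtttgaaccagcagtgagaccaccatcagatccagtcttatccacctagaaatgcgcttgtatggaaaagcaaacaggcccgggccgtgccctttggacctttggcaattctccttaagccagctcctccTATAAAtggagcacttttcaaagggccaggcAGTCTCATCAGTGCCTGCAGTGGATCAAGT
TATAAA, searched on both strands, was in 3 of the 8 windows of these genes, against 13.6% of all 32851 windows, and in Apob it began 31 bases before the listed first exon. CCAAT was in 2 of the 8, against 37.4% of all windows. Both of these windows were of Apoa2. The forkhead letters TGTTTAC were in 3 of the 8, in windows of Apoa2, Apoe and Apoh, against 3.65%. The 8 windows are not separate promoters, since Apoe has 3 of them, some overlapping, and Apoa2 has 2. The Apoe windows with TATAAA or TGTTTAC lie inside the gene and not at the start printed above. GGGCGG was in 0 of the 8, against 35.7% of all windows. CAAAGTCCA and CAAAGGTCA, 2 forms of the element bound by the receptor Hnf4a, were each in 0 of the 8, against 0.475 and 0.478% of all windows. Letters this rare would seldom fall in 8 windows, and only these exact forms were searched. Their absence therefore does not show that the windows lack such an element.

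All 7 genes averaged 1 FPKM or more, as did 73.6% of the 13085 genes with a value, and 6 of the 7 averaged 1000 FPKM or more, as did 0.29%. Together they held 9.57, 7.37 and 6.11% of the summed gene-level FPKM in replicates 1, 2 and 3, a mean of 7.68% ± 1.75 (SD, n = 3). By mean FPKM, Apoa2, Apoe and Apoc1 had ranks 2, 4 and 5 among all genes, and Apoa1, Apoc3 and Apoh had ranks 12, 21 and 29. Apob stood apart at rank 192. Ttr is not in this ranking and would fall between Apoc1 and Apoa1.

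Apoa2 (ENSMUSG00000005681, chromosome 1, 171225054 to 171226379, plus strand), a structural protein of HDL, was at 13383.5, 10107.4 and 5620.54 FPKM in replicates 1, 2 and 3. Its mean was 9704 ± 3897 FPKM (SD, n = 3), with replicate 1 2.38 times as high as replicate 3. Apoa1 (ENSMUSG00000032083, chromosome 9, 46228580 to 46230466, plus strand), the main HDL protein and the activator of the cholesterol-esterifying enzyme Lcat, was at 2330.29, 1723.38 and 3444.84 FPKM, a mean of 2499.5 ± 873 (SD, n = 3). The pair of HDL proteins thus had opposite extremes in replicate 3, where Apoa2 was at its lowest and Apoa1 at its highest. The 3 values of Apoa2 all lay above the 3 of Apoa1.

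Apoe (ENSMUSG00000002985, chromosome 7, 19696109 to 19699188, minus strand) was at 7710.66, 4600.04 and 3074.26 FPKM, a mean of 5128 ± 2363 (SD, n = 3). It had the widest relative range of the 7 genes, 2.51-fold between replicates 1 and 3. Apoc1 (ENSMUSG00000040564, chromosome 7, 19689481 to 19692660, minus strand), an inhibitor of remnant uptake encoded 3449 bases beyond the end of Apoe, was at 5140.44, 4221.98 and 3477.53 FPKM, a mean of 4280 ± 833 (SD, n = 3). Both genes were highest in replicate 1 and lowest in replicate 3, and their ranges overlapped.

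Apoc3 (ENSMUSG00000032081, chromosome 9, 46232933 to 46235636, minus strand), an inhibitor of lipoprotein lipase, was at 1433.46, 1592.7 and 2089.84 FPKM, a mean of 1705 ± 342 (SD, n = 3). In replicate 1 this lower bound is 1 form of an exon alone; with the kept and skipped forms of that exon summed, Apoc3 was at 2764.37, 1592.7 and 2089.84 FPKM, a mean of 2149 ± 588 (SD, n = 3), and replicate 1 was the highest library instead of the lowest. Apoh (ENSMUSG00000000049, chromosome 11, 108343354 to 108414396, plus strand) was at 1427.61, 1560.28 and 1406.08 FPKM, a mean of 1465 ± 83.5 (SD, n = 3). Apob (ENSMUSG00000020609, chromosome 12, 7977648 to 8016835, plus strand), the scaffold of very-low-density lipoprotein, was at 156.482, 234.597 and 263.465 FPKM, a mean of 218 ± 55.3 (SD, n = 3). The Apob transcript is by far the longest of the 7, with 13934 bases in 29 exons against 518 to 1408 bases in the longest coding transcripts of the others, and FPKM is scaled for that length.

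In the order Apoa2, Apoe, Apoc1, Apoa1, Apoc3, Apoh, Apob, neighbours were separated by non-overlapping values in 2 of 6 cases. Apoc1 lay above Apoa1 by a small margin, 3477.53 FPKM for the lowest Apoc1 value and 3444.84 FPKM for the highest Apoa1 value. Apoh lay above Apob by a wide one, at least 1406.08 FPKM for Apoh and at most 263.465 FPKM for Apob. The other neighbours could not be ordered beyond their spread, although within libraries Apoa2 was above Apoe and Apoc3 above Apoh in 3 of 3, and Apoe above Apoc1 in 2 of 3. Apoa1 was above Apoc3 in 3 of 3, but in 2 of 3 with both forms of the Apoc3 exon summed; neighbours were then apart in 3 of 6 cases. With 3 values a gene, an exact permutation test could not have passed 0.05, and none was run.

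**Figure D1:**
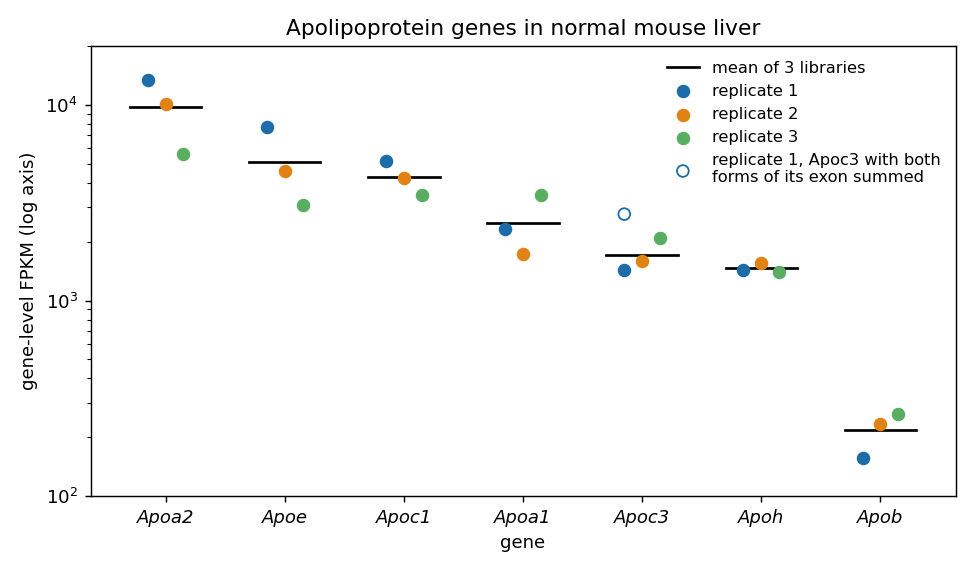
Gene-level FPKM of the 7 apolipoprotein genes on a log axis, with 1 point for each library and a bar at the mean of the 3 libraries; the open circle is Apoc3 in replicate 1 with both forms of its exon summed. Apoa2, Apoe and Apoc1 have their highest point in replicate 1 and Apoa1 and Apob in replicate 3, Apoc3 is highest in replicate 3 by its filled points and in replicate 1 by the open circle, and Apob lies below all others.

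The libraries did not shift the 7 genes in a common direction. On the log2(FPKM + 1) scale, replicate 1 deviated from the gene mean by 0.69 for Apoe, 0.55 for Apoa2 and 0.28 for Apoc1, and by -0.44 for Apob, -0.23 for Apoc3 and -0.043 for Apoa1. Replicate 3 had the opposite signs for these 6 genes, with -0.70 for Apoa2, -0.64 for Apoe and -0.28 for Apoc1 against 0.52 for Apoa1, 0.31 for Apoc3 and 0.30 for Apob. The signs of Apoc3 rest on the form counted: with both forms of its exon summed, it deviated by 0.40, -0.40 and -0.0039 in replicates 1, 2 and 3. Apoh stayed within 0.093 of its mean in every library. Setting the libraries to a common median moved log2 values by at most 0.016.

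**Figure D2:**
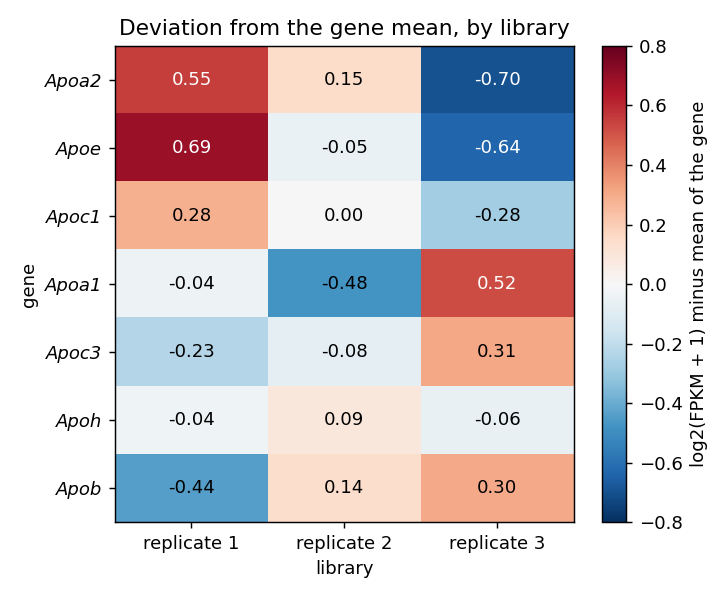
Deviation of log2(FPKM + 1) from the mean of each gene, with 1 row for each of the 7 genes, ordered by mean level, and 1 column for each library; red is above and blue below the gene mean. The signs split the genes, with Apoa2, Apoe and Apoc1 above their means in replicate 1 and below them in replicate 3, and Apoa1, Apoc3 and Apob the other way round in both; with both forms of its exon summed, Apoc3 is at 0.40 in replicate 1 and -0.0039 in replicate 3.

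The SD of log2(FPKM + 1) over the 3 libraries had a median of 0.39 over the 7 genes, against 0.22 over the 9624 other genes that averaged 1 FPKM or more and 0.21 over the 32 others that averaged 1000 FPKM or more. Apoe at 0.66 and Apoa2 at 0.64 had an SD above that of 93.7 and 93.0% of the 9624 genes. Apoa1 at 0.50 exceeded 88.1% of them and Apob at 0.39 exceeded 80.5%. Apoc1 and Apoc3, both at 0.28, exceeded 65.3 and 64.9%. With both forms of its exon summed, Apoc3 was itself the median of the 7 genes, at 0.40 and so above Apob. Apoh at 0.081 exceeded 10.7%.

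**Figure D3:**
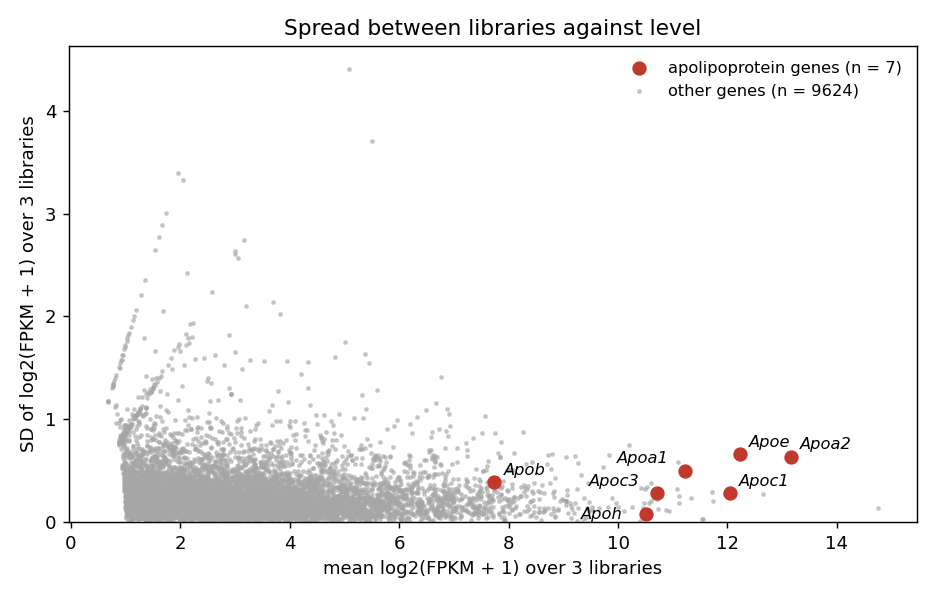
SD of log2(FPKM + 1) over the 3 libraries against its mean, for the 7 apolipoprotein genes in red and for 9624 other genes averaging 1 FPKM or more in grey. Apoe, Apoa2 and Apoa1 lie between 0.50 and 0.66, and Apoh lies at 0.081.

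Macrophages also make Apoe, and the markers of other cell types varied between the libraries. The 10 Kupffer cell or macrophage markers all had a value and summed to 105, 162 and 145 FPKM, lowest in replicate 1, where Apoe was highest; Adgre1 was not listed there. Intestine, which also makes Apoa1, Apoa4 and Apob, has as its markers Fabp2 at 57.4, 41.5 and 37.1 FPKM and Lgals4 at 134.6, 103 and 70.3 FPKM, whereas Vil1 was at 0.36 FPKM in replicate 1 and not listed in the others, and Cdx1, Cdx2, Muc2, Sis and Alpi were not listed. Adipocyte markers, 2 of 5 with a value, summed to 16.2, 4.71 and 4.97 FPKM, nearly all of it Fabp4 at 15.5, 4.71 and 4.97 FPKM. Cfd was at 0.734 FPKM in replicate 1 and not listed in the others, and Adipoq, Plin1 and Lep were not listed. The 5 cholangiocyte markers summed to 79.2, 33.9 and 37.7 FPKM, of which Spp1 alone was 75.5, 31.5 and 35.5 FPKM. Stellate cell markers, 6 of 7 with a value and Lrat not listed, summed to 81.6, 96.9 and 94.8 FPKM, most of it Dcn at 61.4, 75.5 and 76.9 FPKM; their median log2(FPKM + 1) ran the other way, at 2.49, 2.37 and 1.99. The 6 sinusoidal endothelium markers summed to 36.6, 48.4 and 43.8 FPKM. The intestine, adipocyte and cholangiocyte sums were highest in replicate 1, as were Apoe, Apoa2 and Apoc1; their part in those levels was not tested. In tissue, fewer cells of a type and less RNA per cell cannot be told apart.

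Apoa1 differed from Apoc3 by 0.70, 0.11 and 0.72 on the log2(FPKM + 1) scale in replicates 1, 2 and 3, a mean of 0.51 ± 0.34 (SD, n = 3). With both forms of the Apoc3 exon summed, the difference in replicate 1 was -0.25 and the mean 0.20 ± 0.49 (SD, n = 3), smaller than its spread. Apoe differed from Apoc1 by 0.58, 0.12 and -0.18, a mean of 0.18 ± 0.38 (SD, n = 3), so that difference was smaller than its spread and changed sign between libraries. The other genes of the 2 clusters were lower. Apoa4, which is carried on chylomicrons and HDL, was at 309, 124 and 109 FPKM, and Apoa5, which promotes triglyceride clearance, at 278, 274 and 413 FPKM. Apoa4 was highest in replicate 1 and Apoa5, like Apoa1, in replicate 3. Apoc2, the activator of lipoprotein lipase, was at 273, 153 and 147 FPKM, and Apoc4 at 389, 280 and 270 FPKM, both highest in replicate 1, as were Apoe and Apoc1. Apoc2 and Apoc4 overlap a joint annotated locus, and the split between them is uncertain. Apoa5 and Apoc2 had no event under their own identifier. Like Apoe, they were given events by strand and span, by a rule added after the values had been seen.

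The listed starts of Apoa1 differed between the 3 libraries. Its annotated first exon (chromosome 9, 46228580 to 46228736, 157 bases) was at 777, 131 and 3433 FPKM in replicates 1, 2 and 3. A first exon that matches no annotated exon of the gene (46224306 to 46225755, 1450 bases) was at 1333 and 1587 FPKM in replicates 1 and 2 and was not listed in replicate 3. It starts 4274 bases before the annotated start and 112 bases past the end of Sik3, a kinase gene upstream. Another first exon inside the gene (46228721 to 46228999) was at 220, 4.59 and 11.4 FPKM. The upstream exon held 57.2, 92.1 and 0% of the summed first exons, and the annotated first exon 33.3, 7.62 and 99.7%. The annotated first exon also lies wholly inside longer listed exons that end at the same base. One, from 46228360, was at 824 and 1587 FPKM in replicates 1 and 2. Another, from 46227567, was at 508 FPKM in replicate 1. Reads within the shared bases fit either start, so the split between starts rests on how they were assigned to transcripts.

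The sum of all 3 first exons equalled the last exon of Apoa1 (46229805 to 46230466) in every library. Counting or leaving out the upstream exon therefore does not alter the gene level. First exons inside the annotated gene made up 42.8, 7.89 and 100% of the last exon. Between the upstream exon and the gene, replicate 1 listed an exon (46227567 to 46227795) as kept at 824 FPKM, and replicate 2 listed the same exon as skipped at 1587 FPKM. The intron behind it (46227795 to 46228360) was retained at 508 FPKM and spliced at 824 FPKM in replicate 1 and not listed in the others. Minus-strand first exons over Apoa1, filed under the identifier of Apoc3, came to 0.102, 0 and 0.142% of the Apoa1 level. The labels do not say whether the libraries mark strand. Reads there that cross no splice junction thus cannot be told apart from those of Apoa1 itself.

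**Figure D4:**
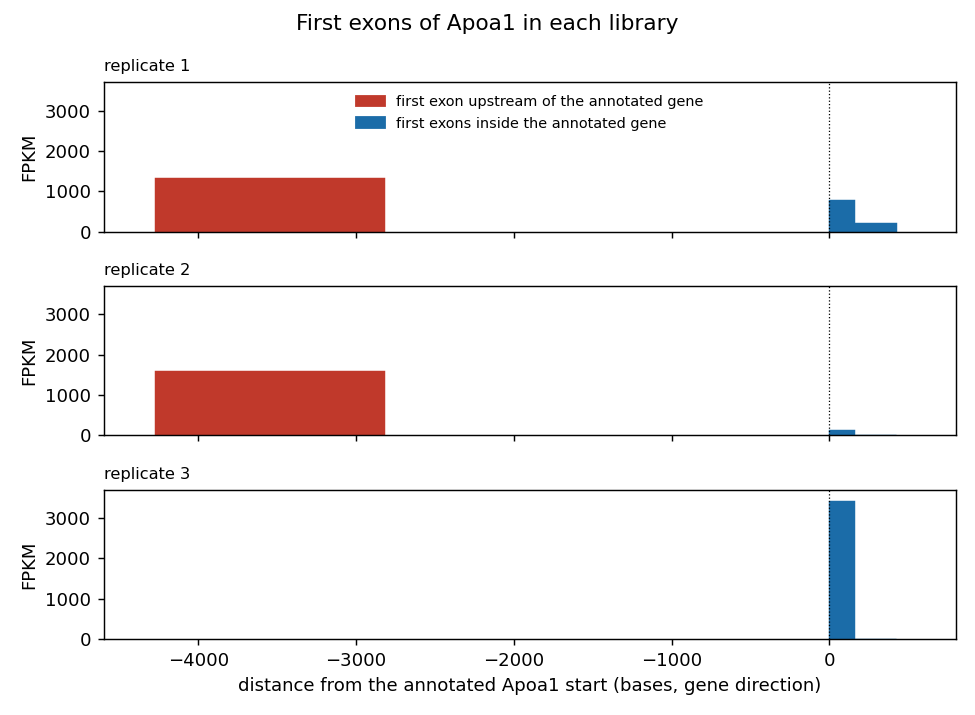
FPKM of the first exons of Apoa1 in each library against the distance in bases from the annotated start of the gene, with the width of each block as the length of the exon. The block upstream of the gene stands at 1333 FPKM in replicate 1 and 1587 FPKM in replicate 2 and is missing in replicate 3, where the annotated first exon is at 3433 FPKM.

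Apoc3 had a main first exon (46235259 to 46235299, 41 bases) at 1338, 1582 and 2067 FPKM, which was 95.4, 99.3 and 98.9% of the first exons inside the annotated gene. A longer-reaching annotated first exon (46235522 to 46235636) was at 63.8, 5.13 and 23.0 FPKM. In replicate 1 alone, an unannotated first exon of 37 bases (46235734 to 46235770), whose outer end lies 134 bases beyond the annotated start of transcription, was at 1427 FPKM. When it was counted, Apoc3 was at 2828, 1593 and 2090 FPKM, close to the level with both forms of the inner exon summed, and the log2 difference of Apoa1 from Apoc3 in replicate 1 was -0.28. The mean of that difference was then 0.19 ± 0.50 (SD, n = 3).

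The exon of Apoc3 shown above, 68 bases with the start codon at 46234711 to 46234713, was kept at 1433, 854 and 1396 FPKM and skipped at 1331, 728 and 670 FPKM. The skipped form was 48.1, 46.0 and 32.4% of the 2 forms, a mean of 42.2%. Replicates 1 and 2 had nearly equal amounts of both forms, and replicate 3 had more of the kept form. GENCODE holds a transcript that lacks this exon, as a processed transcript without a coding sequence. In replicates 2 and 3 the 2 forms summed to 1582 and 2067 FPKM, the value of the main first exon. In replicate 1 they summed to 2764 FPKM, which is the main first exon and the unannotated one together. No last exon of Apoc3 was listed.

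Apoa2 is annotated with 4 starts for exon 2, all ending at 171225366, and all 4 were listed. The start at 171225284 was at 6756, 5112 and 4691 FPKM and that at 171225287 at 6386, 4875 and 648 FPKM. These 2 acceptors are 3 bases apart, the capitals in the sequence above, and both lie ahead of the start codon at 171225315. In replicates 1 and 2 they were used about equally, with a ratio of the first to the second of 1.06 and 1.05, and in replicate 3 the ratio was 7.24. As shares of the 4 starts, the first of the pair had 50.5, 50.6 and 83.5% and the second 47.7, 48.2 and 11.5%. The start at 171225268 had 1.80, 1.19 and 2.80%, and that at 171225299 had 0.00114, 0.000987 and 2.20%.

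The 4 starts of exon 2 summed to the last exon of Apoa2 (171226143 to 171226379) in every library. The lower Apoa2 level of replicate 3 was thus unevenly divided, with 4691 FPKM at the first acceptor of the pair, near the 5112 FPKM of replicate 2, and 648 FPKM at the second, against 4875 FPKM in replicate 2. Replicate 3 was also the library with a first exon listed for Apoa2, at 646 FPKM (171221641 to 171221978), which starts 3413 bases before the GENCODE start of the gene. A RefSeq start window of Apoa2 (171221314 to 171221613) ends just ahead of this exon. An intron upstream of the gene (171222557 to 171223315) was listed as retained at the same value, 646 FPKM. Replicates 1 and 2 listed no first exon for Apoa2.

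**Figure D5:**
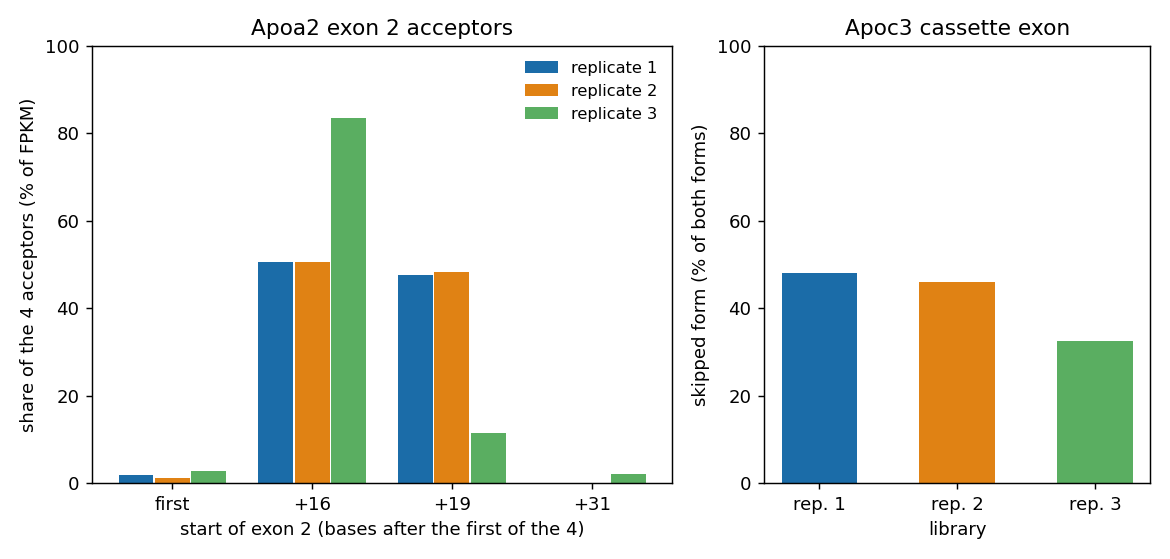
On the left, the share of FPKM at each of the 4 annotated starts of Apoa2 exon 2 in each library, with starts named by their distance in bases from the first of them; on the right, the share of Apoc3 transcripts that skip the exon with the start codon, as a percentage of kept and skipped forms. Replicate 3 differs from replicates 1 and 2 in both panels, with 83.5% at the second Apoa2 start and 32.4% of Apoc3 skipped.

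Apoe had a first exon at 19699011 to 19699188 with 2064, 4587 and 361 FPKM, and the same start with a longer exon, from 19698972, with 909 and 9.64 FPKM in replicates 1 and 2 and not listed in replicate 3. The shorter form held 69.4, 99.8 and 100% of the first exons. First exons made up 38.6, 99.9 and 11.7% of the last exons. In replicates 1 and 3 most Apoe was thus in transcripts with no first exon listed inside the gene. Most was still spliced to 19699011, the inner end of the shorter first exon. Forms joined there, with a 70-base exon kept or skipped, summed to 6603, 4587 and 2982 FPKM in replicates 1, 2 and 3. In replicates 1 and 3 a listed start was therefore missing rather than this splice site. The main last exon (19696272 to 19697103) was at 7502, 4568 and 3070 FPKM and held 97.3, 99.3 and 99.9% of the last exons. A last exon that reaches into an intron (19697256 to 19697647) was at 209, 32.5 and 3.76 FPKM.

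Inside Apoe, an exon of 66 bases (19698188 to 19698253) was at 7513, 4597 and 2982 FPKM, close to the last exon in each library. A 5′ UTR exon of 70 bases (19698404 to 19698473) was mostly left out. It was kept at 134, 87.2 and 119 FPKM and skipped at 6470, 4500 and 2863 FPKM, which makes the skipped form 98.0, 98.1 and 96.0% of both. The plus-strand events that carry the identifier of Apoe had first exons at 4.77 FPKM in replicate 1 and 3.14 FPKM in replicate 3 and none in replicate 2, at most 0.102% of the sense level. As at Apoa1, reads of the 2 strands that cross no splice junction cannot be told apart.

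Apoc1 showed a single form. Its first exon (19692609 to 19692660) was at 5135, 4215 and 3472 FPKM, its inner exon (19691888 to 19692035) and last exon (19689481 to 19689636) carried the gene level, and the first exon was 99.9, 99.8 and 99.8% of the last. No skipped form of the inner exon was listed, against 4 transcripts in the annotation. Apoh had 1 event a library, its last exon (108414240 to 108414396).

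Apob was represented by its first exon (7977648 to 7977860), by the kept form of exon 2 and by an inner exon (8003256 to 8003401), all 3 at the gene level in each library. Exon 2 has 39 bases, a multiple of 3, and its skipped form was not listed. The last exon listed for Apob (8015873 to 8016835) starts at an inner acceptor of the main last exon, ends at the same base and belongs to an annotated transcript with a short coding end; it was at 32.8, 0.128 and 27.6 FPKM, which is 21.0, 0.0544 and 10.5% of the first exon. The main last exon was not listed, so the last exons of Apob give no gene level. Apob messenger RNA can be edited by Apobec1 so that it encodes a shorter protein, and these tables do not measure editing. The editing enzyme Apobec1 was at 5.28 ± 0.27 FPKM and its cofactors A1cf, Rbm47 and Syncrip at 29.5 ± 6.13, 11.8 ± 1.43 and 5.40 ± 1.28 FPKM (SD, n = 3), all 4 of the list above 1 FPKM. By identifier alone, Syncrip was higher, at 9.70, 11.7 and 11.0 FPKM in replicates 1, 2 and 3.

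The other genes of lipoprotein metabolism were set beside the 7 as lists, and the median of mean log2(FPKM + 1) over all genes with a value was 2.10. Of 17 other apolipoprotein and related genes, 16 had a value, none of the 16 below 1 FPKM, and their median was 6.60. The highest were Clu, the chaperone also named apolipoprotein J, at 574 ± 48.7 FPKM, Apof at 333 ± 114 FPKM and Apoa5 at 322 ± 79.2 FPKM (SD, n = 3); Apod was not listed. All 14 genes of particle assembly and HDL loading reached 1 FPKM, and their median was 5.87. They were led by Pon1, an HDL-bound esterase, at 439 ± 109 FPKM, P4hb, a subunit of the microsomal transfer complex, at 375 ± 24.9 FPKM and Lcat at 200 ± 33.6 FPKM (SD, n = 3).

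Uptake genes were lower, with a median of 3.64 over the 11 of 12 that reached 1 FPKM and Lrp8 not listed. Lrp1, a remnant receptor that binds Apoe, was at 108 ± 7.06 FPKM, the HDL receptor Scarb1 at 42.7 ± 10.1 FPKM and Sdc1, a heparan sulphate proteoglycan that binds remnants, at 35.2 ± 16.8 FPKM (SD, n = 3). The Sdc1 level depends on the rule. By identifier alone it was at 56.0, 74.6 and 63.0 FPKM in replicates 1, 2 and 3, above Scarb1 in each. All 8 genes of lipases and their inhibitors reached 1 FPKM, and their median was 4.69. Among them hepatic lipase Lipc was at 100 ± 8.31 FPKM and Angptl8, part of the inhibition of lipoprotein lipase, at 63.4 ± 30.4 FPKM (SD, n = 3). The editing list had a median of 3.17. Of 16 regulators of apolipoprotein genes, 14 reached 1 FPKM, their median was 4.68, and Cebpa and Cebpb were not listed. Mlxipl, the carbohydrate response factor, was at 93.8 ± 34.2 FPKM, Hnf4a at 81.0 ± 19.5 FPKM and the receptor partner Rxra at 63.3 ± 10.7 FPKM (SD, n = 3).

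For each of the 7, the nearest of 9624 other genes was sought by Euclidean distance in log2(FPKM + 1) over the 3 libraries, a measure that weighs both level and pattern. Apoh was nearest to Serpina1d at a distance of 0.15, Apob to the bile acid carrier Slc10a1 at 0.16 and Apoc3 to the translation factor Eef1a1 at 0.18. With both forms of the Apoc3 exon summed, Eef1a1 was at a distance of 0.81 and the nearest gene was Hpx, the haem carrier, at 0.17. Serpina1d is one of several near-identical serpin copies, and its own value is uncertain. Apoa1 was nearest to Hpx as well, at 0.62 and Apoc1 to the fetuin gene Ahsg at 0.69. Apoe and Apoa2 had no near neighbour by this measure: the closest gene to both was Fabp1, the fatty acid carrier of hepatocytes, at distances of 1.04 and 1.07. Besides the 7, only Alb and Fabp1 averaged above Apoe, so few genes could be near in level. These distances therefore do not show that the pattern over libraries was unmatched.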

How the data were processed

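RNA sequencing of 3 libraries of normal mouse liver was used as deposited, in the form of event tables whose FPKM values the authors computed, per the file headers. Per the submitters' processing notes, the tools were HISAT2 2.0.1, cutadapt 1.9.1, DESeq2 and HTSeq 0.6.1 and the build mm9; no source used here names the tool behind the event tables. Per the labels' protocols, RNA with an integrity number above 6.5 went into either poly(A) selection or rRNA removal, without a statement of which. First exons matched GENCODE M21 positions exactly in 82.0, 82.2 and 82.7% of cases and in at most 0.00564% after a shift of 1000 bases, so positions were read as GRCm38. Depth is unknown, since no counts are given.

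Identical rows (1519, 1440 and 1485) were removed. Events were given to a gene by identifier, strand and span. Genes with no such event took events on their strand inside their span that were not wholly inside the gene their identifier names. This rule was added after the values had been seen and gave 1032 genes a value, among them Apoe, Apoa5 and Apoc2. Another 529 genes with an identifier had no value. Calculations used Python 3.11.15, pandas 2.3.3 and numpy 2.4.6, a pseudocount of 1 and a minimum mean of 1 FPKM. The code for the gene-level rule was run on simulated data, where 200 of 200 genes were recovered. The simulated first exons lay inside each gene and summed to its set value, so recovery was built in. The run checks the code and does not test the rule on genes with first exons outside their span.

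The 7 genes, the lists and the rules were chosen with earlier results of these data known. Named besides the 7 are, for each, the nearest gene by distance, and of each list the 3 highest genes and those not listed, apart from an item not reported here; the cluster neighbours, Apobec1 and the marker genes were named for their roles. Alternatives changed the events used, their assignment, scaling, pseudocount, minimum and replicates.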

Additional observations from a re-analysis of the deposited data

How the results depend on the processing

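No paired analysis was possible because all 3 libraries belong to 1 group. Apart from leaving out a library, 70 summary values were classed as unchanged, 11 as moved and 1 as reversed. Counts among them have no spread of their own. Among the 11, Apoe over Apoc1, whose mean was smaller than its spread, also turned negative with first exons alone and by identifier alone. Of single-gene means, 52 stayed and 7 moved. With first exons alone, which exist for 5 of the 7 genes (not Apoa2 or Apoh), the median level on the log2(FPKM + 1) scale was 10.71 (11.23 over all 7 with the definition used here), 0 of 4 neighbours were apart, Apoa1 over Apoc3 reversed to -1.10, Apoe over Apoc1 was -1.31 and the median over the 6 lists was 4.68 (otherwise 4.91); with last exons alone that median was 4.69. First exons alone gave Apoa1 1526 FPKM, since its upstream first exon was listed but lies outside the span. They gave Apoe 2644 FPKM, since in replicates 1 and 3 most Apoe had no first exon listed inside the gene. Last exons alone gave Apob 20.2 FPKM, since its main last exon was not listed. By identifier alone, neighbours were apart in 5 of 6 cases and Apoe, then its antisense events, was at 2.64 FPKM and at -10.52 against Apoc1. By identifier alone and with spans extended by 5000 bases upstream, an alternative chosen after seeing the data, the annotated Apoa1 first exon held 46.9% of first exons under both (otherwise 91.4%) and that of Apoc3 81.8% under both (otherwise 97.9%). With both forms of an exon or intron summed, also chosen after seeing the data, Apoc3 averaged 2149 FPKM and Apoa1 over Apoc3 0.20. Without the added rule for genes lacking their own events, Apoe had no value.

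Leaving out each library in turn gave 3 to 4 neighbours apart, a list median of 4.78 to 4.95, a member median of 10.97 to 11.47, a median SD of 0.28 to 0.40, Apoa1 over Apoc3 of 0.41 to 0.71 and Apoe over Apoc1 of -0.027 (without replicate 1) to 0.35. Lists kept 67 genes at 1 FPKM or more in each case. Of the first exons inside the annotated gene, the main one held 87.3 to 98.1% for Apoa1, 97.2 to 99.1% for Apoc3 and 84.6 to 99.9% for Apoe. These shares leave out the first exons upstream of Apoa1 and Apoc3. By identifier, which counts them, the share in replicates 1, 2 and 3 was 33.3, 7.62 and 99.7% for Apoa1. For Apoc3 it was 47.3, 99.3 and 98.7%. The main last exon of Apoe held 98.3 to 99.6% of its last exons.

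With 3 libraries, no depth and lower-bound levels, small differences cannot be resolved, and first exon shares follow the transcripts that the authors' assembly listed.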
